A study of Mus musculus with 4 samples.

Results

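Cytosolic ribosomal protein genes are the genes for the protein subunits of the 80S ribosome outside mitochondria. They were picked by symbol. Names begin with Rpl or Rps and a number, then at most 1 of the letters a, l or x and at most 1 further digit. The stalk genes of the Rplp series and Rpsa were included, while the Rps6k kinases and rows marked as pseudogenes were left out. The protein-coding rows Rpl36al and Rps4y2 do not match this pattern and were not members. The rule found 83 of the 23235 gene rows, 51 for the large subunit and 32 for the small subunit. Of these, 77 are the core genes of the ribosome and 6 are paralogs (Rpl3l, Rpl7l1, Rpl10l, Rpl22l1, Rpl39l and Rps27l). All 83 were above 0 in each sample and all passed the filter on low values, a mean of at least 1 FPKM (fragments per kilobase, scaled to the depth of the library) over the 4 samples.

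The samples came from HG165, an androgenetic haploid ESC line, that is, embryonic stem cells of C57BL/6 mice with one set of chromosomes, inherited from the father. Cells received either the solvent DMSO or RDF, a mixture of Repsox (a TGF-β pathway inhibitor), DMH1 (a BMP4 pathway inhibitor) and Forskolin (an adenylate cyclase activator), and 2 samples of each were sequenced. All 4 samples derive from 1 cell line, and doses, treatment time and the share of cells that were still haploid are not given for them. The labels do not say whether the 2 samples of a group were separate cultures, so the p-values measure the spread between these samples, which may be technical.

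Ribosomes consist of ribosomal RNA and about equal numbers of each ribosomal protein, and the genes of these proteins are spread over the genome and transcribed at high level in growing cells. Most of their messenger RNAs start with a cytosine followed by a run of pyrimidines, the terminal oligopyrimidine (TOP) motif, through which mTORC1 signalling controls their translation. They are short transcripts with many processed pseudogenes, which are intronless copies of the messenger RNA elsewhere in the genome.

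Sequences at the start of transcription and coding sequences of paralog pairs help to read the values. Pyrimidine runs at the start are shown as the 15 bases before and the 15 bases from the start of transcription annotated by RefSeq in GRCm38.p6, 5′ to 3′, with the pyrimidine run that holds the start base in capitals. Rps27, Rpl15 and Rpl34 have runs that hold the start base, though in Rpl34 that base is T near the end of the run, which is not the TOP form, and its other annotated start has no run. Also, the paralog Rps27l, whose start base is a purine, is set beside Rps27. The windows lie at chr3:90213634-90213663 (minus strand) for Rps27, chr14:18270972-18271001 (minus strand) for Rpl15, chr3:130730323-130730352 (minus strand) for the more downstream of the 2 annotated starts of Rpl34, and chr9:66946071-66946100 (plus strand) for the more upstream of the 2 annotated starts of Rps27l.
Rps27 start: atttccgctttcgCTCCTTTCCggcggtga
Rpl15 start: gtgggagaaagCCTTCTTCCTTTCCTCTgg
Rpl34 start: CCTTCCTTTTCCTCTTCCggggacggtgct
Rps27l start: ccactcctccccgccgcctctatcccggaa

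The run spanned 9 bases in Rps27, 17 in Rpl15 and 20 in Rpl34, some of which lie outside the window. Some other core genes named below had shorter runs or none, and for Rpl30, Rps29 and Rplp1, among others, no RefSeq promoter was at hand. The run was 5 bases in Rpl39 and 4 in Rpl13, Rps2 and Rps28, and Rps4x and Rpl26 had no run at the start base. RefSeq promoters (250 bases before to 50 after the start) were at hand for 62 of the 83 genes, 56 of them core genes with 66 annotated starts. At 13 of these 66 starts (19.7%) the start base was C with at least 5 pyrimidines from it on, against 2.51% of all 32851 annotated starts. The large and small subunits were close, at 17.5% of 40 and 23.1% of 26 starts, and 0 of the 8 starts of the paralogs had it. A match says only what letters stand at the annotated start.

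Other short motifs, searched on both strands of the whole promoter, were also unevenly spread. CCGGAAG, which is within the site of the ETS factor GABP, stood in 36.4% of the 66 core promoters and in 8.86% of all promoters. AAGATGGC, which is within the site of YY1 and can share its first bases with CCGGAAG, stood in 10.6% against 2.75%, and GGGCGG, the GC box, in 60.6% against 35.7%. TATAAA, the TATA box, stood in 9.09% of core promoters and 13.6% of all promoters. These are descriptions of the promoters, and the deposited data hold no measurement of binding there.

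Coding sequences of a core gene and its paralog show how far reads of the 2 can be told apart. They were read from the NCBIM37 genome (mm9), the build of the deposited values, with capitals at the bases that differ within the pair. Rpl39, a small protein of the polypeptide exit tunnel, lies at chrX:34622515-34625397 (minus strand), and its paralog Rpl39l, known for its use in the testis, at chr16:10170319-10175004 (plus strand).
Rpl39 coding: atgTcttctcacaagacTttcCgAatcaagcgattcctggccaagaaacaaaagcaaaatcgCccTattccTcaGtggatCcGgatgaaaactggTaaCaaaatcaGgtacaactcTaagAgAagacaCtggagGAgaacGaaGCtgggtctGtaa
Rpl39l coding: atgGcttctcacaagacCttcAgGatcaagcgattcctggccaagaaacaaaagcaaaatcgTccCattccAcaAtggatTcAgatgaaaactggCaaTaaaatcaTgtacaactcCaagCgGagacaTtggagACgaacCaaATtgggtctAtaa

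Rps27, a zinc-finger protein of the small subunit, lies at chr3:90016593-90017573 (minus strand), and Rps27l, a paralog known as a p53 target, at chr9:66793893-66797323 (plus strand).
Rps27 coding: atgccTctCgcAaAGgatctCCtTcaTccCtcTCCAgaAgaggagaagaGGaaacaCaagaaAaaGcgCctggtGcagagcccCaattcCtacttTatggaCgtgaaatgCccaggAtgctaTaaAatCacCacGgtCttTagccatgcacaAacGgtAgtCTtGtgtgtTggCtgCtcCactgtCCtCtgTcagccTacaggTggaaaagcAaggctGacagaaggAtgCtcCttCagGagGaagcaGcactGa
Rps27l coding: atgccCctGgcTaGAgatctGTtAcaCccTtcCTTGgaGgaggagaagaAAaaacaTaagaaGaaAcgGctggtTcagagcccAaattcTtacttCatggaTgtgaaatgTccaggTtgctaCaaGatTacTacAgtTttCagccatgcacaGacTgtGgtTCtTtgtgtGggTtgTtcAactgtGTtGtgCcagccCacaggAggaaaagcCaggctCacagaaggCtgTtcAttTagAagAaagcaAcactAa

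Rpl39 and Rpl39l differed at 23 of 156 bases, with a longest shared run of 38 bases. Rps27 and Rps27l differed at 61 of 255 bases, and their longest shared run was 11 bases.

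Depth is not in the files. Steps in the low values of genes with a single transcript gave estimates of 10000000 and 11400000 fragments for the DMSO samples and 12500000 and 11300000 for the RDF samples. Of those low values, 45.0% to 49.9% per sample came out whole to within 0.1 fragment, so the estimates are rough and cover counting error only. Markers of embryonic stem cells moved both ways: of 10, 4 were called lower and 4 higher in RDF. Pou5f1 (Oct4) was at 1285 and 1223 FPKM in DMSO and 1031 and 939 FPKM in RDF, and was called lower with Dppa5a, Utf1 and Tdgf1, while Zfp42, Sall4, Klf2 and Sox2 were called higher. Of the trophoblast markers tested, 2 of 4 were higher (Gata3 and Hand1), of those of primitive endoderm 1 of 3 was higher (Gata6) and 1 lower (Sparc), and of 2 neural markers neither was called. Of 10 fibroblast markers 8 passed the filter, of which 5 were lower and 1 higher in RDF. Their summed level was 55.8 and 55.5 FPKM in DMSO and 36.3 and 37.1 FPKM in RDF. Col1a1 was at 10.5, 10.4, 2.62 and 2.17 FPKM, and Dcn at 1.74, 1.40, 6.56 and 7.51 FPKM. The labels describe culture on feeder cells, while the methods limit feeders to assays that do not include RNA-seq. The part of these markers in the ribosomal protein values was not tested, and in bulk RNA fewer cells of a type and less RNA per cell cannot be told apart.

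Ribosomal protein genes made up 26.6% to 30.1% of the summed FPKM of these cells. Their share was 27.6% in DMSO replicate 1, 30.1% in DMSO replicate 2, 27.5% in RDF replicate 1 and 26.6% in RDF replicate 2. Both RDF values lay below both DMSO values, but DMSO replicate 1 and RDF replicate 1 differed little. The mean of RDF minus the mean of DMSO was -1.8 percentage points, and no exact test of 2 samples a group could reach the threshold. Without DMSO replicate 2 the difference was -0.58 points and without DMSO replicate 1 it was -3.01 points. Of the 100 genes with the highest mean FPKM, 62 were ribosomal protein genes. FPKM is relative to the library, so these shares do not speak of the total amount of RNA per cell.

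**Figure D1:**
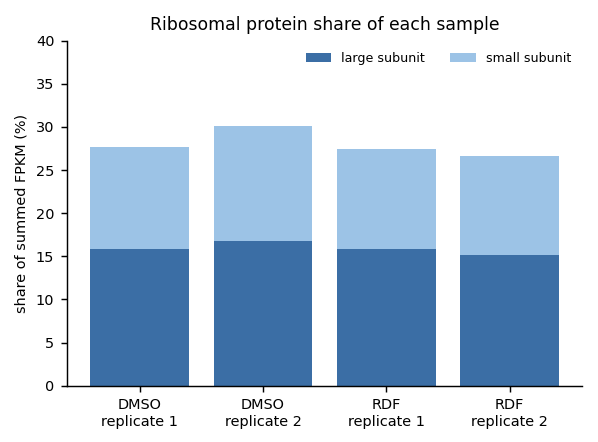
Share of summed FPKM (%) held by the 51 large-subunit genes (dark) and the 32 small-subunit genes (light) in each of the 4 samples; each bar is 1 sample. The bars end at 27.6% and 30.1% in DMSO and at 27.5% and 26.6% in RDF, with DMSO replicate 2 the tallest.

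Large-subunit genes together had more FPKM than small-subunit genes, and the median small-subunit gene was higher. The ratio of the summed FPKM of the 2 subunits, large over small, was 1.34 and 1.26 in DMSO and 1.36 and 1.32 in RDF, so the conditions overlapped. The low value of DMSO replicate 2 came in part with 1 gene, Rps27. Without Rps27 the ratios were 1.35 and 1.32 in DMSO and 1.36 and 1.33 in RDF, so DMSO replicate 2 was still the lowest. The median large-subunit gene stood at 2101, 2243, 2152 and 2027 FPKM in DMSO replicates 1 and 2 and RDF replicates 1 and 2, and the median small-subunit gene at 2622, 3198, 2691 and 2657 FPKM. The small-subunit median was above the large-subunit median in each sample. Among core genes alone the medians of the 4-sample means were 2351 FPKM for the 46 large-subunit genes and 2836 FPKM for the 31 small-subunit genes, at median coding lengths of 483 and 456 bases.

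The core genes had similar levels, as far as FPKM, which scales to length, can be compared between genes. Their median was 2568 FPKM, and 60 of 77 lay within 2-fold of it, with 13 lower and 4 higher. The highest was Rplp1, an acidic protein of the stalk that recruits elongation factors, at 7703 and 9625 FPKM in DMSO and 7962 and 7720 FPKM in RDF. Rpl13 followed in the large subunit at 6839 and 7071 FPKM in DMSO and 6679 and 6350 FPKM in RDF. Rpl39 was next, with 5712 and 7390 FPKM in DMSO and 5995 and 5780 FPKM in RDF. For Rpl13 both RDF samples were below both DMSO samples, while for Rplp1 and Rpl39 only DMSO replicate 2 stood above the rest.

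In the small subunit the 3 highest genes were Rps2, Rps4x and Rps26. Rps2, near the messenger RNA entry channel, was at 6591 and 6787 FPKM in DMSO and 6153 and 5985 FPKM in RDF. Rps4x, which is X-linked, was at 5500 and 5293 FPKM in DMSO and 4844 and 4690 FPKM in RDF, and Rps26, at the messenger RNA exit side, at 4827 and 5295 FPKM in DMSO and 4740 and 4742 FPKM in RDF. In these 3 genes both RDF samples were below both DMSO samples, by log2 fold changes between -0.18 and -0.09 that turned to 0.025 to 0.039 with quantile normalization. None passed limma's test (adjusted p from 0.212 to 0.524).

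**Figure D2:**
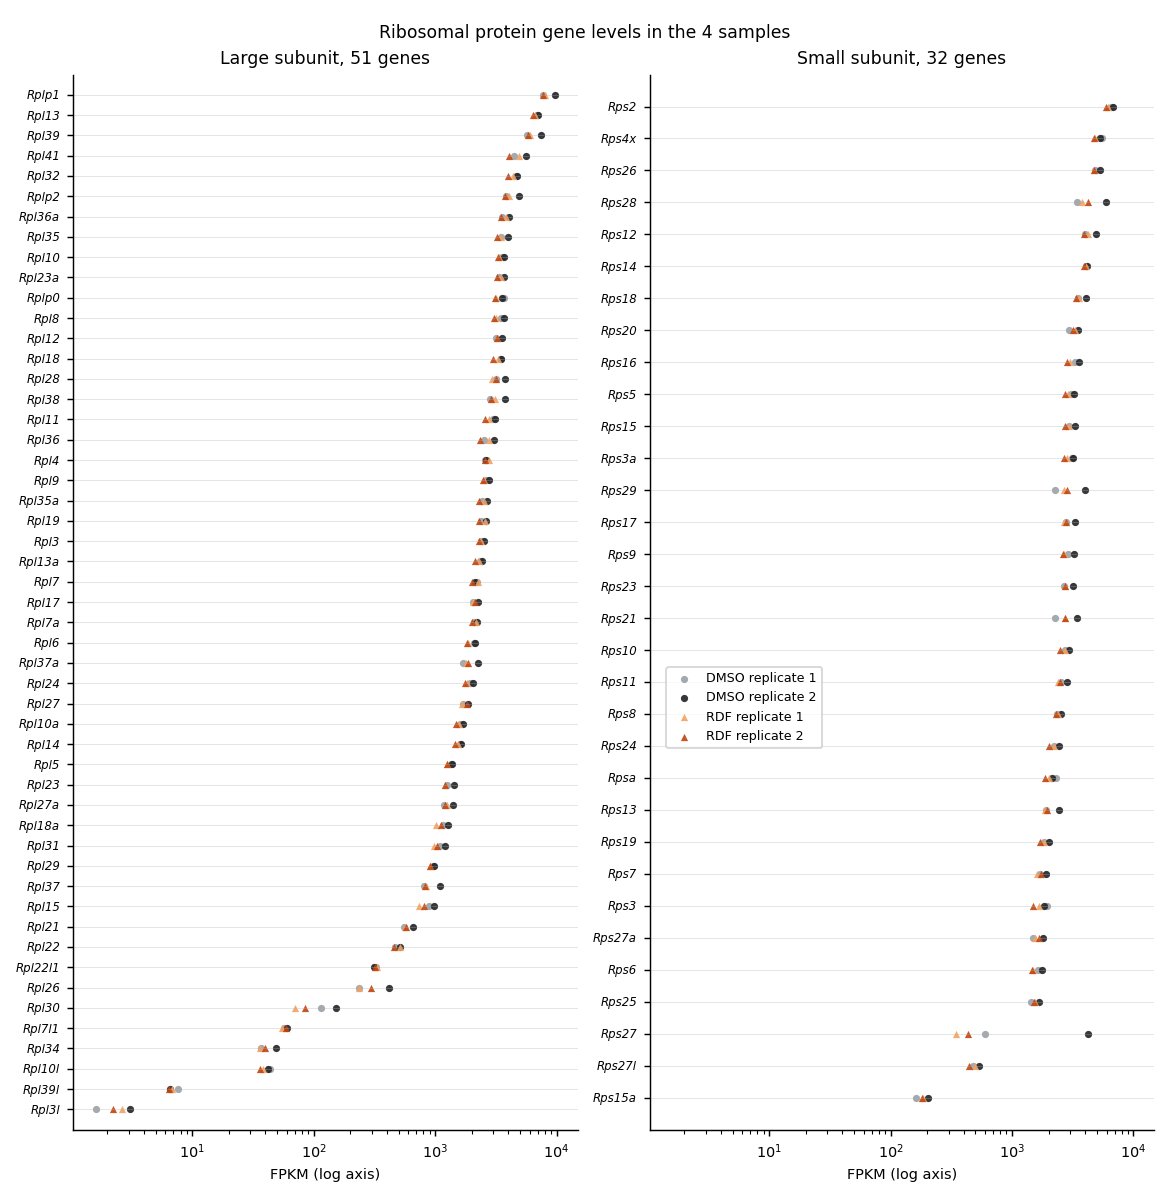
FPKM (log axis) of each of the 51 large-subunit genes and 32 small-subunit genes in the 4 samples, ordered by mean level; circles are DMSO and triangles RDF. Most genes lie between 1000 and 8252 FPKM, a tail of low genes ends with Rpl3l at a mean of 2.38 FPKM, and the Rps27 values spread from 349 to 4259 FPKM.

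Of the ribosomal protein genes, Rpl30 alone passed the test between RDF and DMSO. By limma on log2(FPKM + 1), with Benjamini-Hochberg adjustment over 11733 genes and a threshold of 0.05, 0 of 83 were higher and 1 was lower, where 13.3% of all genes tested were higher and 8.28% lower. At an unadjusted p under 0.05 the counts were 0 higher and 9 lower, against 22.5% and 15.5% of all genes. Most log2 fold changes were small and below 0: 77 of 83 had a log2 fold change below 0, against 45.6% of all genes tested, and the median was -0.12 beside 0.03 over all genes. Both RDF values were below both DMSO values in 39 of 83 genes (47.0%, against 28.5% of all), and both above in 0 (against 37.1%). The median standard error of a single gene was 0.09, close to the size of the median. Without DMSO replicate 2 the median was -0.03, with 54 of 83 below 0.

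The medians of the subunits were close. The median log2 fold change was -0.11 over the large-subunit genes, where 47 of 51 were below 0 and 1 was called lower. It was -0.14 over the small-subunit genes, where 30 of 32 were below 0 and 0 were called by limma, with 4 at an unadjusted p under 0.05 and lower. The direction held when the samples were rescaled, while its size depended on the scale: the median of the 83 genes was -0.16 with median-ratio scaling, -0.08 on the TPM scale and -0.04 with quantile normalization, where 50 of 83 were below 0. Other genes at 1000 FPKM or more, 50 in number, had a median of -0.07, with 32 below 0, and the 68 ribosomal protein genes at that level had a median of -0.13, with 66 below 0.

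Rpl30, a large-subunit protein that also binds selenoprotein messenger RNAs, was at 114 and 151 FPKM in DMSO and 69.9 and 85.0 FPKM in RDF. Both RDF samples were lower, and the log2 fold change was -0.76 with a standard error of 0.15 (adjusted p = 0.019 by limma). Its fold of 0.590 in RDF over DMSO was beyond that of the other 82 genes except Rps27. The call was lost with no filter on low values (adjusted p = 0.064) and without RDF replicate 1 or 2 (adjusted p = 0.116 and 0.071 by limma), in a range from 0.0020 to 0.116 over all alternatives. Rpl30 has a low level for a core gene and 19 near-identical copies of its coding sequence in the genome, whose part in its value was not tested.

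The other 4 largest falls did not pass the test. Rps27 had the widest spread of the 83 genes, with 602 and 4259 FPKM in DMSO and 349 and 437 FPKM in RDF. Both RDF samples were below both DMSO samples, and the DMSO samples were 7.08-fold apart, a distance over 2-fold that only 0.435% of all genes tested showed between them. Its log2 fold change was -2.03 with a standard error of 0.81 (adjusted p = 0.125 by limma). It was -0.62 without DMSO replicate 2 and -3.44 without DMSO replicate 1, and both passed limma's test (adjusted p = 0.023 and 4.2e-05, in a range up to 0.350 over all alternatives). The sample left alone is assumed in these fits to vary like the others, and the direction was the same in each.

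Rpl15, a core protein of the large subunit, was at 891 and 985 FPKM in DMSO and 738 and 805 FPKM in RDF, a log2 fold change of -0.28 ± 0.08 (SE; adjusted p = 0.057 by limma). It passed with median-ratio scaling and without DMSO replicate 1 (adjusted p = 0.043 and 0.035 by limma), in a range from 0.028 to 0.263 over all alternatives. Rps3, at the messenger RNA entry and also known as a DNA repair protein, was at 1930 and 1829 FPKM in DMSO and 1670 and 1495 FPKM in RDF, a log2 fold change of -0.25 ± 0.09 (adjusted p = 0.088 by limma). In both genes the RDF samples lay below the DMSO samples. Rpl26, which also binds p53 messenger RNA, was at 235 and 415 FPKM in DMSO and 234 and 295 FPKM in RDF, so the groups overlapped, and its log2 fold change of -0.25 turned to 0.16 without DMSO replicate 2.

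No member rose. The 5 largest positive log2 fold changes were 0.07 in Rpl3l, 0.05 in Rpl4 (whose loop reaches into the exit tunnel), 0.04 in Rpl22l1, 0.03 in Rps20 and 0.0073 in Rps15a, all smaller than their standard errors. Rpl4 was at 2572 and 2607 FPKM in DMSO and 2757 and 2595 FPKM in RDF. Rps20 was at 2934 and 3467 FPKM in DMSO and 3321 and 3191 FPKM in RDF, and Rps15a at 163 and 202 FPKM in DMSO and 183 and 181 FPKM in RDF. In each the groups overlapped.

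**Figure D3:**
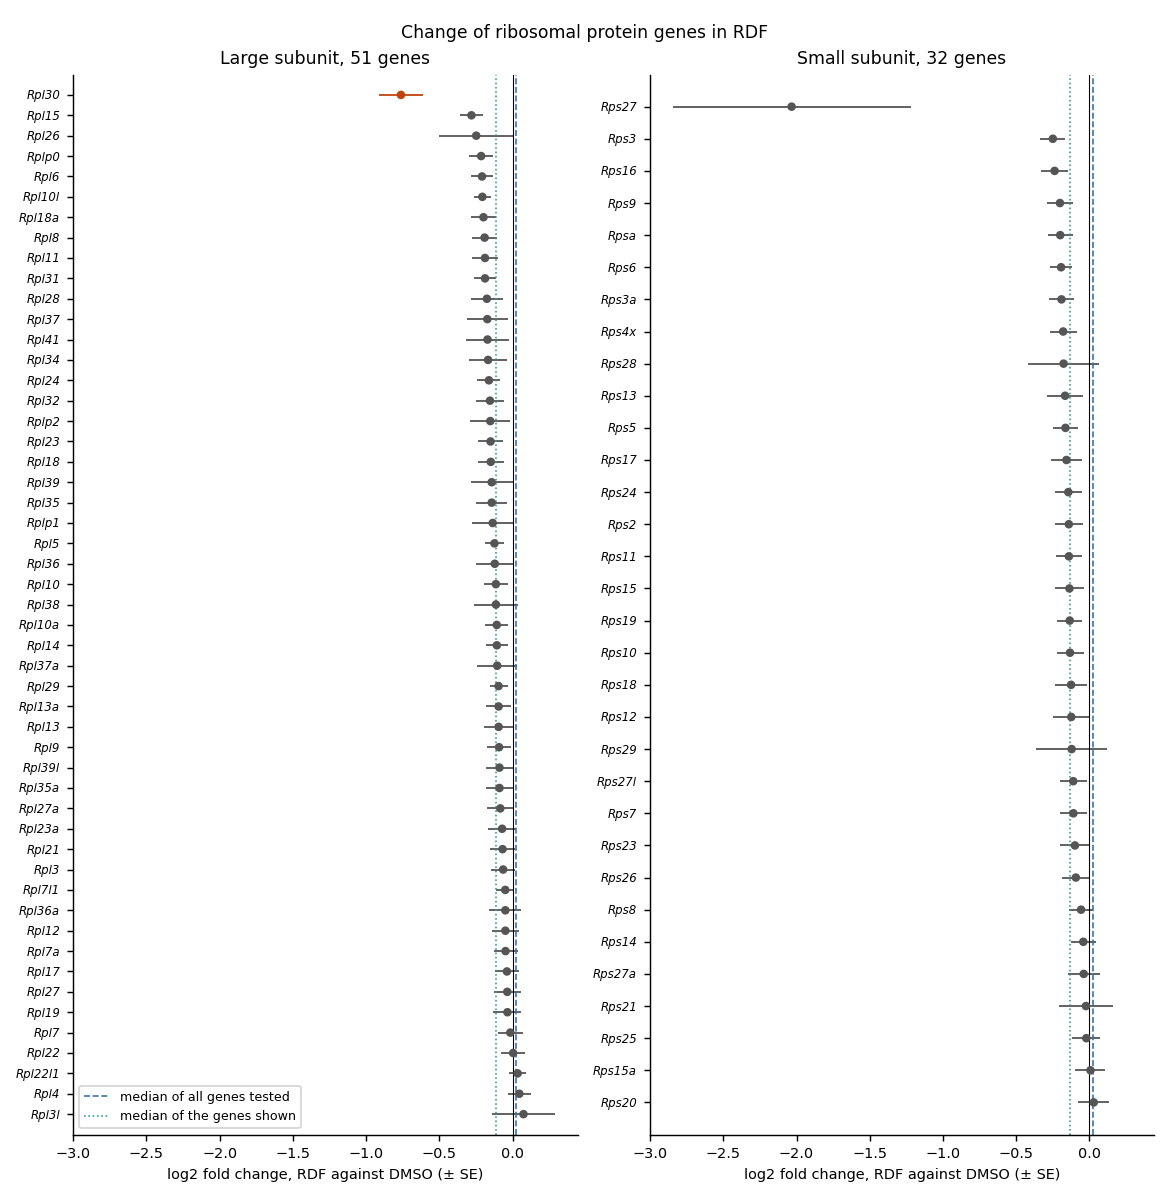
Log2 fold change of RDF against DMSO with its standard error (limma) for the 51 large-subunit and 32 small-subunit genes, ordered by size; the coloured point is the gene that passed the test, Rpl30, the dashed line is the median of all genes tested (0.03) and the dotted line the median of the genes shown. Most genes sit just below 0, with Rps27 at -2.03 and the widest error.

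Much of the difference in the median came with DMSO replicate 2. This sample had the highest of the 4 values in 73 of 83 genes, against 22.7% of all genes tested, and it was above DMSO replicate 1 in 75 of 83, against 48.3%. RDF replicate 2 was the lowest of the 4 in 47 of 83, against 21.0%, and above RDF replicate 1 in 22 of 83, against 55.3%. DMSO replicate 1 was the highest of the 4 in 6 of 83 and the lowest in 18 of 83, against 23.7% and 26.6% of all genes tested. Without DMSO replicate 2 the median log2 fold change of the members was -0.03, with 54 of 83 below 0, beside 0.03 over all genes. Without DMSO replicate 1 the members' median was -0.20, with 79 of 83 below 0, again beside 0.03 over all genes.

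The excess of DMSO replicate 2 was larger in shorter genes. In 10 members with a coding length of up to 300 bases its median log2 difference from DMSO replicate 1 was 0.43. It was 0.21 in 28 members of 301 to 450 bases, 0.13 in 19 members of 451 to 600 bases and 0.05 in 25 longer members. Other genes showed the same order at a smaller size, with 0.11 in 235, 0.07 in 574, 0.03 in 737 and -0.01 in 9689 genes. The median coding length was 465 bases over the 82 members with an annotation, and 1338 bases over the other genes tested. Over the 82 members, Spearman's rho of coding length and the DMSO difference was -0.65, a description of genes that share their libraries.

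Besides Rps27 and the low Rpl3l, this excess was above 1.5-fold in Rpl26, Rps29, Rps28 and Rps21, of which the last 3 are named after their values were seen. Rps29, another short zinc-finger protein, was at 2265 and 3963 FPKM in DMSO and 2693 and 2819 FPKM in RDF. Rps28, at the messenger RNA exit, was at 3443 and 5914 FPKM in DMSO and 3797 and 4200 FPKM in RDF, and Rps21 at 2273 and 3420 FPKM in DMSO and 2745 and 2741 FPKM in RDF. In these 3 genes DMSO replicate 2 was the highest sample and DMSO replicate 1 the lowest, with the RDF samples between them.

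The RDF replicates did not show this order. In the members the median log2 differences of RDF replicate 2 from RDF replicate 1 were -0.02, -0.05, -0.02 and -0.07 from shortest to longest. In other genes they went the opposite way to DMSO, at -0.03, -0.02, -0.01 and 0.02. There, rho with coding length was 0.20 for the RDF difference and -0.13 for the DMSO difference. Among the members the comparison of the conditions was also even over length. Their median log2 fold change was -0.12, -0.13, -0.11 and -0.12 in the same ranges, and rho with coding length was -0.05. Other genes were less even, with medians of -0.04, -0.03, -0.03 and 0.04 and a rho of 0.17. Coding length stands here for transcript length, and the part of length in the values was not tested further.

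**Figure D4:**
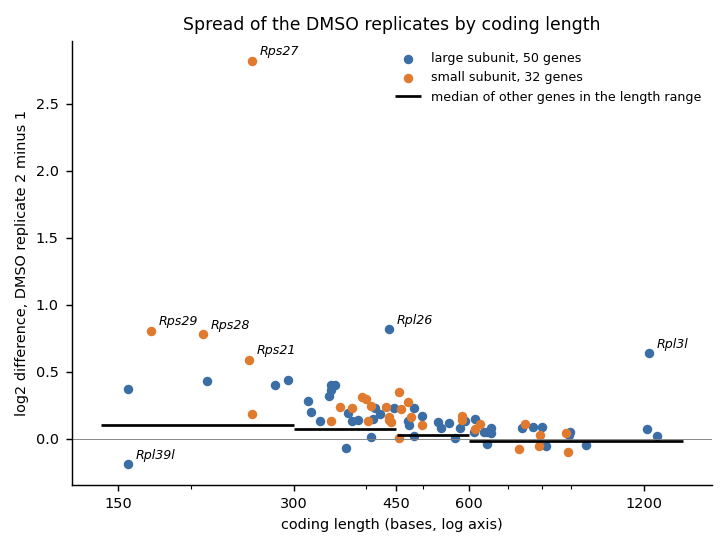
Log2 difference of DMSO replicate 2 minus DMSO replicate 1 against coding length (bases, log axis) for 50 large-subunit and 32 small-subunit genes; black lines are the medians of other genes in each length range. The points fall from a median of 0.43 in members of up to 300 bases to 0.05 in those over 600 bases, and the lines from 0.11 to -0.01.

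Some core genes had low values. Of the 77, 9 had a mean under 1000 FPKM, 8 of the large subunit and 1 of the small subunit, and the highest core gene was 205-fold above the lowest. From lowest up these were Rpl34 at 40.2 FPKM, Rpl30 at 105 FPKM, Rps15a at 182 FPKM, Rpl26 at 295 FPKM, Rpl22 at 487 FPKM, Rpl21 at 590 FPKM, Rpl15 at 855 FPKM, Rpl37 at 896 FPKM and Rpl29 at 943 FPKM. They are named because of this level, after their values were seen. Without DMSO replicate 2 there were 10, 2 of them of the small subunit, since Rps27 then had a mean of 463 FPKM. As ribosomes hold these proteins in about equal numbers, the levels of the lowest were set beside the number of near-identical copies.

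Most core coding sequences had such copies. Aligned to NCBIM37 outside their own gene, 73 of 76 had at least 1 uninterrupted copy of at least 90% identity over at least 90% of their length, with a median of 9, a maximum of 79 (Rpl21) and 989 in all. At 98% identity or more there were 238 copies, of 64 genes. The 9 low genes had from 3 (Rpl22) to 79 copies, with 10 for Rpl34, 12 for Rps15a, 14 for Rpl26 and 60 for Rpl29. Of the 5 core genes with over 40 copies, 2 were among the low genes (Rpl21 and Rpl29). Spearman's rho of copies over the 76 core genes was -0.18 with level and 0.14 with log2 fold change, both weak. How the authors' counting shared reads among such copies is not stated, so the levels of single members are uncertain to that extent.

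In the case of Rpl34 a copy has its own row. Rpl34-ps1, a processed pseudogene on chromosome 6 (71074583 to 71074994, NCBIM37) that the rule left out, was listed at 2343 and 2875 FPKM in DMSO and 2549 and 2515 FPKM in RDF. Rpl34 itself was listed at 36.7 and 48.8 FPKM in DMSO and 35.9 and 39.4 FPKM in RDF. The pseudogene row was 64.0-fold above the gene's row and near the median of the core genes. Neither row changed by limma, with log2 fold changes of -0.04 and -0.17 (adjusted p = 0.842 and 0.393). Whether reads of one were placed on the other was not tested, as no reads were analysed.

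**Figure D5:**
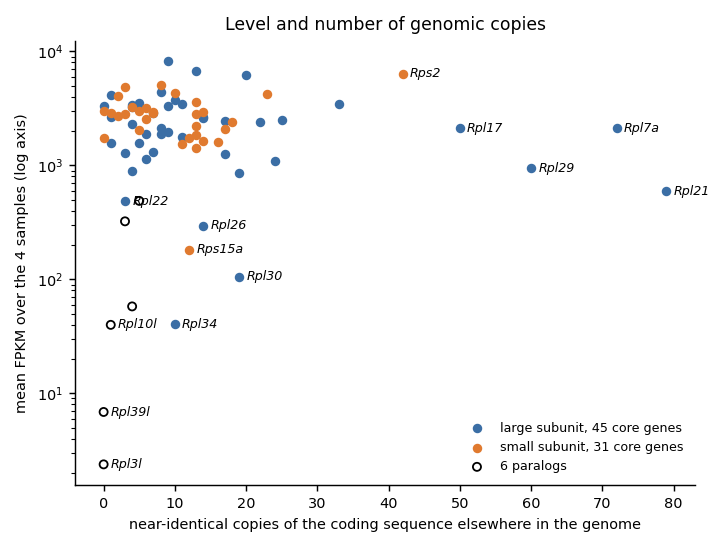
Mean FPKM over the 4 samples (log axis) against the number of near-identical copies of the coding sequence elsewhere in the genome for 45 large-subunit and 31 small-subunit core genes and 6 paralogs (open circles). The 4 lowest core genes, from Rpl34 at 40.2 FPKM to Rpl26 at 295 FPKM, have 10 to 19 copies, and of the 5 core genes with over 40 copies, Rpl21 and Rpl29 lie under 1000 FPKM and Rps2, Rpl17 and Rpl7a above.

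The paralogs ranged from close to their core gene to 1012-fold below it. Rpl22l1, which can replace Rpl22, was at 327 and 311 FPKM in DMSO and 334 and 320 FPKM in RDF. It made up 41.4% and 37.9% of the pair in DMSO and 39.3% and 41.0% in RDF, so the balance of the pair overlapped between conditions. Rps27l was at 474 and 539 FPKM in DMSO and 499 and 439 FPKM in RDF. Its share of the pair was 44.0% and 11.2% in DMSO and 58.9% and 50.1% in RDF, and the spread came from Rps27, since Rps27l itself varied little (log2 fold change -0.11, adjusted p = 0.424 by limma).

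The other paralogs were low. Rpl7l1 was at 57.2 and 60.5 FPKM in DMSO and 54.9 and 58.8 FPKM in RDF, 37.1-fold below Rpl7. Rpl10l, an intronless gene that serves for the X-linked Rpl10 in male meiosis, was at 43.4 and 42.1 FPKM in DMSO and 37.9 and 35.9 FPKM in RDF, 87.0-fold below Rpl10. Both RDF samples were below both DMSO samples (log2 fold change -0.21 ± 0.06, SE, adjusted p = 0.053 by limma), and it passed the test with median-ratio scaling and with a stricter filter on low values (adjusted p = 0.038 and 0.049 by limma), in a range up to 0.214 over all alternatives.

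Rpl39l and Rpl3l were lowest. Rpl39l was at 7.64 and 6.57 FPKM in DMSO and 6.75 and 6.46 FPKM in RDF, 907-fold below Rpl39. Rpl3l, known from skeletal and heart muscle, was at 1.60 and 3.05 FPKM in DMSO and 2.63 and 2.23 FPKM in RDF, 1012-fold below Rpl3. Their groups overlapped. The coding sequences of the pairs were identical at 73.3% (Rpl3), 53.0% (Rpl7), 84.8% (Rpl10), 66.9% (Rpl22), 85.3% (Rpl39) and 76.1% (Rps27) of aligned bases. Whether a low paralog value holds reads of its abundant core gene was not tested.

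The members lie on 19 chromosomes, with 14 on chromosome 7 and 4 on the X chromosome (Rpl10, Rpl36a, Rpl39 and Rps4x), of which an androgenetic haploid cell has 1 copy, as of each autosome. Of 82 annotated members, 30 hold 58 annotated small nucleolar RNA genes inside them, 20 genes of the large subunit and 10 of the small subunit. These RNAs guide the modification of ribosomal RNA. The median log2 fold change was -0.13 in the 30 hosts and -0.12 in the others.

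Genes that work with the ribosomal proteins were counted from fixed lists. Fau, whose product is Rps30 behind a ubiquitin-like protein, had the level of a core gene, at 2606 and 2911 FPKM in DMSO and 2618 and 2391 FPKM in RDF. The groups overlapped, and the log2 fold change was -0.14 (adjusted p = 0.336 by limma).

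Other genes with TOP messenger RNAs, mainly translation factors, had a median log2 fold change of -0.13 over 16 tested. Of these, 0 were called higher and 1 lower, against 13.3% and 8.28% of all genes. The gene called lower was Eef2, the elongation factor that moves the ribosome along, at 2775 and 2549 FPKM in DMSO and 2086 and 2083 FPKM in RDF (log2 fold change -0.35 ± 0.08, SE, adjusted p = 0.032 by limma). Here DMSO replicate 2 was above DMSO replicate 1 in 6 of these 16 genes, with a median difference of -0.06.

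Of 51 ribosome biogenesis factors, 0 were called higher and 9 lower, with a median of -0.10, where 13.3% of all genes were called higher and 8.28% lower. Those that fell most were Nop16, a nucleolar factor of the large subunit, from 46.5 and 44.4 FPKM to 34.5 and 32.2 FPKM (log2 fold change -0.44), and Ltv1, a factor of the small subunit, from 31.7 and 30.2 FPKM to 24.4 and 25.0 FPKM (-0.31). Both RDF values were below both DMSO values in 28 of the 51, against 28.5% of all genes. DMSO replicate 2 was above DMSO replicate 1 in 21 of the 51.

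Chaperones and importers of ribosomal proteins, a list that shares Ltv1, counted 0 higher and 4 lower of 12 (against 13.3% and 8.28% of all genes), with Ipo4, an import receptor, at 29.1 and 28.3 FPKM in DMSO and 22.5 and 22.4 FPKM in RDF (log2 fold change -0.34). RNA polymerase I genes counted 2 higher and 1 lower of 14, near the shares of all genes. Ubtf, the factor that opens ribosomal DNA, was higher (29.7 and 29.1 FPKM to 38.7 and 38.5 FPKM, log2 fold change 0.38), as was the subunit gene Twistnb (0.36), while Polr1a, the largest subunit, was lower (-0.28).

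Genes of mTORC1 signalling and TOP control counted 4 higher and 0 lower of 19, against 13.3% and 8.28% of all genes, with a median of 0.02. Rragc, a GTPase that brings mTORC1 to the lysosome, went from 39.2 and 39.9 FPKM to 55.6 and 54.0 FPKM (log2 fold change 0.46), and Larp4 from 30.8 and 31.7 FPKM to 39.3 and 41.6 FPKM (0.36). Both were called by limma.

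Mitochondrial ribosomal protein genes, the closest counterpart, counted 3 higher and 10 lower of 76, against 13.3% and 8.28% of all genes, with a median of -0.10 and 60 below 0, against 45.6%. Among those called, Mrps34 (log2 fold change -0.41) and Mrps5 (-0.32) fell most, and Mrps31 (0.28) and Mrpl23 (0.25) rose most. DMSO replicate 2 was above DMSO replicate 1 in 53 of 76, with a median difference of 0.06, beside 0.13 in the cytosolic genes. The level of the mitochondrial genes was much lower, with a sum between 4263 and 4723 FPKM per sample, against sums between 191327 and 229914 FPKM for the cytosolic genes.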

How the data were processed

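RNA-seq of 4 samples (DMSO, n = 2; RDF, n = 2) was analysed from the authors' values. Per the labels and methods, 150 ng of total RNA went into stranded mRNA libraries, reads were mapped to mm9 with TopHat2 2.0.14 and Bowtie2 2.1.0 (the submitters' processing notes), and the authors deposited FPKM from Cufflinks 2.2.1 for 23235 gene rows. How multi-mapping reads were treated is not given in the sources used here.

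The 11733 genes averaging 1 FPKM or more were compared on log2(FPKM + 1), which understates changes of low genes, with limma 3.58.1 (R 4.3.3; lmFit, eBayes with trend, no block) and Benjamini-Hochberg adjustment. Standard errors are limma's. Positions and coding sequences came from GENCODE vM1 on NCBIM37 (82 of 83 members matched), copies from BLAST 2.17.0, and promoters from RefSeq. Genes named in the text were every paralog, the 3 highest of each subunit, the 5 largest changes each way among members averaging 1 FPKM or more, members past the threshold (up to 20), and in other lists up to 2 rises and 2 falls past the threshold. Members and lists were chosen with earlier results of these data known. A gene of these lists is not reported here.

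Alternatives were a pseudocount of 0.1, no filter, a mean of at least 5 FPKM, other scalings, no trend, a replicate block, each sample left out, and other sums. Depth is not in the files and was only estimated.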

Additional observations from a re-analysis of the deposited data

How the results depend on the processing

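Under every alternative, 0 ribosomal protein genes were called higher in RDF, and the medians of the large-subunit and small-subunit genes stayed below 0. The number called lower was 1 of 83 as reported, against 8.28% of all genes tested. It was 0 with no filter on low values (against 3.36%) and 2 of 82 with a mean of at least 5 FPKM (against 9.78%). With median-ratio scaling over all or over other genes it was 3 of 83 (against 10.1% and 10.2%). Leaving out 1 sample gave 0 to 9 lower (without RDF replicate 1 or 2, and without DMSO replicate 1), medians from -0.20 to -0.035 over the 83 genes and from -0.18 to -0.027 over the large subunit, and 448 to 1852 calls among all genes, against 2533. Quantile normalization gave a large-subunit median of -0.036, and no filter 1548 calls among all genes, against 2533 as reported. The causes were not tested.

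With the replicate number as a block, 4 of 83 members were called lower (Rpl10l, Rpl15, Rpl30 and Rps27), against 9.09% of all genes tested. The numbers are not known to pair the samples. Over all genes tested, deviations of same-numbered samples correlated with Pearson's r = 0.134, and over the members with r = 0.492. By rank, Spearman's rho was 0.114 over all genes tested and 0.308 over the members.

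Some small fold changes of named genes changed sign. With quantile normalization the log2 fold change was 0.040 in Rpl13, 0.039 in Rps2, 0.037 in Rps26 and 0.025 in Rps4x. With median-ratio scaling it was -0.026 in Rps15a and -0.0040 in Rps20, and with scaling over other genes -0.028, -0.0057 and, in Rpl22l1, -0.00031. With 1 sample left out it ranged from -0.00050 to 0.071 in Rpl22l1, -0.66 to 0.16 in Rpl26, -0.33 to 0.044 in Rpl39, -0.18 to 0.0062 in Rpl39l, -0.25 to 0.39 in Rpl3l, -0.30 to 0.025 in Rplp1, -0.15 to 0.16 in Rps15a and -0.091 to 0.15 in Rps20. Sums without Rps27, an alternative chosen after seeing the data, kept the sign of the share and of the subunit ratio.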
